A study of Mus musculus with 8 samples.

Results

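The 10 genes Glul, Oat, Slc1a2, Rhbg, Cyp2e1, Cyp1a2, Lgr5, Axin2, Tbx3 and Lect2 mark the hepatocytes around the central vein of the liver lobule and depend there on Wnt signalling. They were taken by name from 19540 genes measured on arrays of mouse liver, and all 10 were found. A gene was represented by the probe set that the platform annotation pairs with its symbol alone. Of the members, Glul had more than 1 such probe set (2), and the one with the higher mean over the 8 arrays stood for it. Livers labelled HNF6KO (4 arrays) were compared with livers labelled WT (4 arrays). HNF6 is the homeodomain factor encoded by Onecut1, and the design text calls these livers depleted of HNF6. The sources used here give neither the allele, any Cre driver nor which cells lost the factor. Both groups were male C57B/6 mice aged 12 weeks, on chow and a regular light and dark cycle. They were sampled at ZT10 (zeitgeber time, counted from lights on), given as 5 pm. No treatment besides the depletion of HNF6 is named. The labels do not say whether each array came from a separate animal, so a p-value covers the spread among these arrays, which may be technical.

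The liver lobule is divided into zones along the path of the blood. Endothelial cells of the central vein secrete Wnt ligands and R-spondin, and the nearest hepatocytes answer by stabilising β-catenin, which binds TCF/LEF factors on DNA. These pericentral hepatocytes make glutamine from ammonia that escaped the urea cycle and carry much of the P450 metabolism of drugs and ethanol. Their Wnt target genes include both feedback components of the pathway and metabolic enzymes. The comparison asks whether this set of genes differed when HNF6 was depleted.

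No pericentral gene passed the test, which by itself does not show equal levels in HNF6KO and WT livers. Of the 10 members, 0 passed an adjusted p of 0.05 (limma, Benjamini-Hochberg over all 19540 genes), where 0.399% of all genes passed. At an unadjusted p of 0.05, 1 member passed (Lect2), or 1 in 10, where 9.51% of all genes did. Lect2 was also the 1 member whose HNF6KO and WT arrays did not overlap, a separation seen for 5.67% of all genes, and with 1 of 10 members either count is near its background. The median log2 change of the members was -0.07 (4 above 0 and 6 below 0), against -0.01 over all genes. Without regard to sign, the median size of the log2 change was 0.18 for the members and 0.06 for all genes. These sizes are not like for like. All members were brighter than the median gene, and the size among such genes alone was not computed. For 6 members (Glul, Oat, Slc1a2, Cyp2e1, Cyp1a2 and Axin2) the 95% interval of the difference lay within 1.5-fold in either direction. The intervals of Rhbg, Lgr5, Tbx3 and Lect2 reached beyond it. By comparison, Onecut1 itself fell by 1.32 ± 0.18 (SE) on the log2 scale, to 8.93 ± 0.31 in HNF6KO livers, against 10.25 ± 0.30 in WT livers (SD, n = 4 each; adjusted p = 0.0273), a call lost without any 1 of HNF6KO arrays 3 and 4 and WT arrays 1, 3 and 4 (adjusted p = 0.0633 to 0.0954). Whether its probe set lies in the deleted part of the gene is not known here. All values are the authors' deposited ones, read as log2, and a log2 change is HNF6KO minus WT. In a whole liver extract, fewer pericentral cells and less RNA per cell cannot be told apart.

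**Figure D1:**
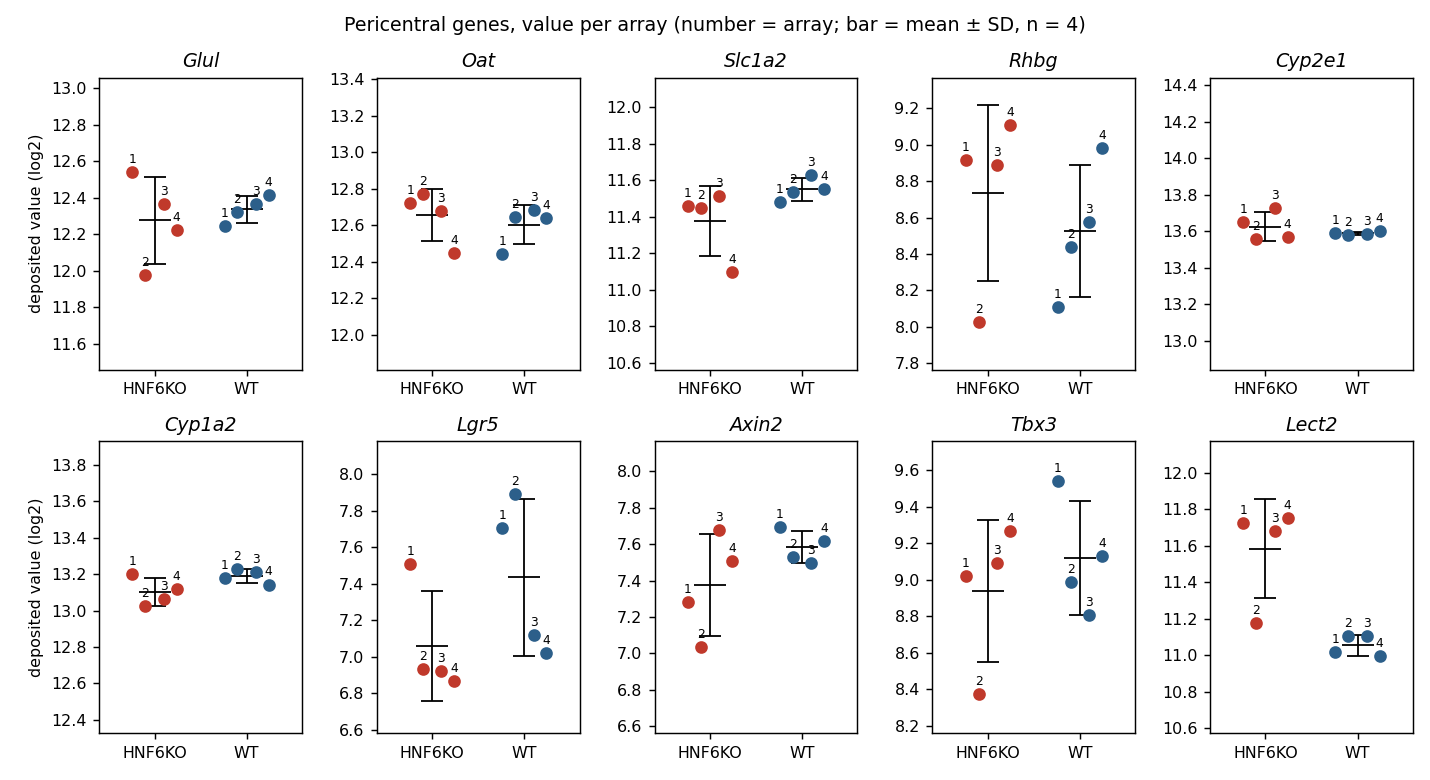
Deposited log2 value of each pericentral gene on 4 HNF6KO arrays (left) and 4 WT arrays (right), with mean and SD. Every panel spans the same height on the log2 scale. The groups overlap for 9 genes and lie apart for Lect2.

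Among the genes of glutamine synthesis, none passed the test. Glul (Entrez gene 14645) encodes glutamine synthetase, the textbook marker of the innermost ring of hepatocytes. Its log2 values were 12.54, 11.98, 12.37 and 12.22 on HNF6KO arrays 1 to 4, against 12.24, 12.32, 12.36 and 12.42 on WT arrays 1 to 4. The WT values lay inside the range of the HNF6KO values. The log2 change was -0.06 ± 0.11 (SE; adjusted p = 0.932), or 0.960-fold with a 95% interval of 0.809 to 1.14. The other, dimmer Glul probe set gave -0.06 ± 0.12 (adjusted p = 0.934).

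Oat (Entrez 18242), the ornithine aminotransferase that feeds glutamate to glutamine synthetase, had log2 values of 12.72, 12.77, 12.68 and 12.45 in HNF6KO livers, against 12.44, 12.65, 12.68 and 12.64 in WT livers. The lowest array of either group stood at nearly the same value, and the groups overlapped. The log2 difference was 0.05 ± 0.08 (adjusted p = 0.913), or 1.04-fold (0.910 to 1.18).

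Slc1a2 (Entrez 20511) encodes a glutamate transporter of the cell membrane. Its log2 values were 11.46, 11.45, 11.51 and 11.09 in HNF6KO livers, against 11.48, 11.54, 11.63 and 11.55 in WT livers. HNF6KO array 4 lay well below the other 7 arrays, which spanned a narrow range. The group means differed by -0.17 ± 0.09 on the log2 scale (adjusted p = 0.613), or 0.888-fold (0.770 to 1.02), and by -0.08 without HNF6KO array 4.

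Rhbg (Entrez 58176), an ammonium transporter of the same cells, varied most within the HNF6KO group. Its log2 values were 8.92, 8.03, 8.89 and 9.11 in HNF6KO livers, against 8.11, 8.44, 8.57 and 8.98 in WT livers. The lowest value of all was on an HNF6KO array and so was the highest. The group means differed by 0.21 ± 0.25 on the log2 scale (adjusted p = 0.872), with an interval of 0.782-fold to 1.71-fold, and by 0.44 ± 0.18 without HNF6KO array 2 (adjusted p = 0.492). Leaving out WT array 4 gave 0.36, leaving out HNF6KO array 4 gave 0.08 and leaving out WT array 1 gave 0.07.

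The P450 enzymes of the zone were the most closely bounded members. Both lay near the top of the measured range. Cyp2e1 stood at the 99.9th and Cyp1a2 at the 99.8th percentile of all genes by mean value. The highest value of any probe set was 13.96 to 14.11, depending on the array. Differences between such bright probe sets may be compressed, which was not tested, so narrow intervals here do not show equal RNA levels. Cyp2e1 (Entrez 13106), which oxidises ethanol and acetaminophen, had log2 values of 13.65, 13.56, 13.73 and 13.57 in HNF6KO livers, against 13.59, 13.58, 13.58 and 13.60 in WT livers. The WT arrays differed from each other by an SD of 0.0097, and the HNF6KO arrays lay on both sides of them. The log2 change was 0.04 ± 0.05 (adjusted p = 0.892), or 1.03-fold (0.948 to 1.11). Cyp1a2 (Entrez 13077), which metabolises caffeine and aromatic amines and is also a target of the aryl hydrocarbon receptor AHR, had log2 values of 13.20, 13.02, 13.06 and 13.12 in HNF6KO livers, against 13.18, 13.23, 13.21 and 13.14 in WT livers. Of the HNF6KO arrays, array 1 lay among the WT values and the others below them. The log2 difference was -0.09 ± 0.05 (adjusted p = 0.656), or 0.940-fold (0.866 to 1.02).

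The members that act in Wnt signalling itself (Lgr5 and Axin2) and the transcription factor Tbx3 had a log2 change below 0, as did 57.4% of all genes. None of them passed, and the sign of Axin2 and Tbx3 was not the same in every set of arrays. Lgr5 (Entrez 14160) encodes the R-spondin receptor that keeps Wnt receptors on the cell surface. Its log2 values were 7.51, 6.93, 6.92 and 6.87 in HNF6KO livers, against 7.71, 7.89, 7.12 and 7.02 in WT livers. In each group the values fell into a higher and a lower set, and HNF6KO array 1 lay between the WT sets. This gave a log2 change of -0.38 ± 0.22 (adjusted p = 0.654), or 0.770-fold (0.547 to 1.08). Without WT array 2 it was -0.22 and without HNF6KO array 1 it was -0.53. Lgr5 and Axin2 were the dimmest members, at the 55.3rd and 59.5th percentile of all genes by mean value.

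Axin2 (Entrez 12006), a scaffold of the complex that degrades β-catenin and a feedback target of the pathway, had log2 values of 7.28, 7.03, 7.68 and 7.51 in HNF6KO livers, against 7.69, 7.53, 7.50 and 7.62 in WT livers. HNF6KO arrays 1 and 2 lay below the WT range and arrays 3 and 4 within it. This gave a log2 change of -0.21 ± 0.13 (adjusted p = 0.675), or 0.865-fold (0.710 to 1.05). Without HNF6KO array 2 it was -0.09 and without HNF6KO array 3 it was -0.31. Tbx3 (Entrez 21386), a T-box transcription factor and β-catenin target of liver, had log2 values of 9.02, 8.38, 9.09 and 9.27 in HNF6KO livers, against 9.54, 8.99, 8.81 and 9.13 in WT livers. HNF6KO array 2 was the lowest and WT array 1 the highest. This gave a log2 change of -0.18 ± 0.21 (adjusted p = 0.869), or 0.883-fold (0.637 to 1.22).

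Lect2 (Entrez 16841), a protein that hepatocytes secrete into the blood and a β-catenin target, was the member that stood furthest apart. Its log2 values were 11.72, 11.18, 11.68 and 11.75 in HNF6KO livers, against 11.02, 11.10, 11.11 and 10.99 in WT livers. Every HNF6KO array lay above every WT array, with a gap of 0.0712 between HNF6KO array 2 and the highest WT array. The means were 11.58 ± 0.27 in HNF6KO livers and 11.06 ± 0.06 in WT livers (SD, n = 4 each). The log2 change was 0.53 ± 0.12 (SE), or 1.44-fold with a 95% interval of 1.19 to 1.74, and it did not pass over all genes (adjusted p = 0.152, unadjusted p = 0.00173). By unadjusted p it ranked 222nd of 19540 genes. Leaving out HNF6KO array 2 gave 0.66 ± 0.05 (adjusted p = 0.00391), past the threshold, while over the 18 alternative fits the adjusted p ran from 0.00391 to 0.577 and 2 fits passed. The other was the comparison within arrays 3 and 4 (0.66 ± 0.07, adjusted p = 0.0432), and within arrays 1 and 2 the change was 0.39 ± 0.18 (adjusted p = 0.577).

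**Figure D2:**
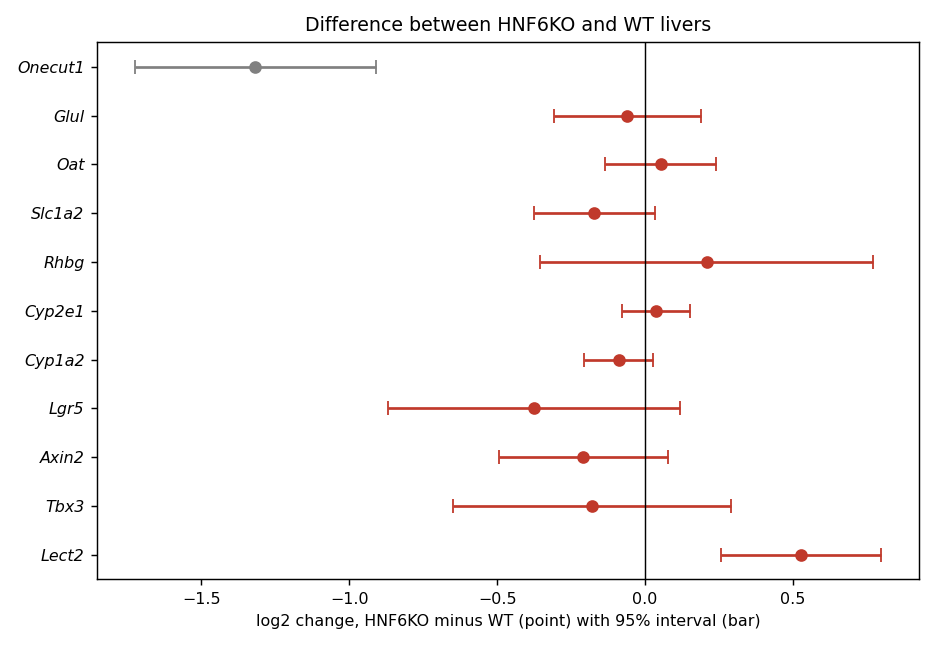
Log2 change (HNF6KO minus WT, points) with its 95% interval (bars, limma, 4 arrays per group) for Onecut1 in grey and the 10 pericentral genes in red. The intervals of 9 members include 0, and that of Lect2 runs from 0.26 to 0.80.

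The Lect2 promoter is shown because this member had the largest difference and its start region holds the letters of both motifs searched. Promoters from RefSeq (build GRCm38.p6, 250 bases before to 50 after the start, in the direction of transcription) were found for 7 of the 10 members. Searched on both strands were CTTTGAT, a core of the TCF/LEF site, and ATTGAT, a core of the HNF6 site. Of all 32851 promoters of that length, 3.73% held the first and 7.54% the second. Among the 7 members, 2 held the first (Slc1a2 and Lect2), 3 the second (Cyp1a2, Axin2 and Lect2), and 3 neither (Glul, Oat and Cyp2e1). Lect2 was the 1 member with both, as the reverse complements ATCAAT and ATCAAAG, which do not overlap. Capitals mark the matches in the Lect2 promoter (chr13:56548489-56548788, minus strand).
Lect2: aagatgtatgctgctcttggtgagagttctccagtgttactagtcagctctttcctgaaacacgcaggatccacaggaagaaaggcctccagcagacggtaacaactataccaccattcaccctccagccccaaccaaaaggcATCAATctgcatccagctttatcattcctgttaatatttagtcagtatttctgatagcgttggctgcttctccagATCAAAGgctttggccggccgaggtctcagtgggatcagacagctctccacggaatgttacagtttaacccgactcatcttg

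In Lect2 the HNF6 letters began 107 bases and the TCF/LEF letters 32 bases before the start. The 3 stretches below, each with 20 bases on either side of a match in capitals, come from members that hold 1 of the motifs. They are the HNF6 letters of Cyp1a2 (chr9:57683741-57683786, minus strand) and Axin2 (chr11:108920157-108920202, plus strand) and the TCF/LEF letters of Slc1a2 (chr2:102706211-102706257, plus strand).
Cyp1a2: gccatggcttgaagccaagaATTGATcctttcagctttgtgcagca
Axin2: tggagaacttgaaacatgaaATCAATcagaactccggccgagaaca
Slc1a2: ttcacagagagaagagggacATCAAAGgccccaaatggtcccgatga

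The members with HNF6 letters thus had log2 changes of 0.53 (Lect2), -0.09 (Cyp1a2) and -0.21 (Axin2), and none passed. A match of a few letters describes the sequence and does not show that a factor binds there.

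The genes whose values lay nearest to those of Lect2 over the 8 arrays were Sult1b1, Fam185a, Acss3, Mospd2 and Akr1c14. Likeness was the mean absolute difference of log2 values, each gene centred on its own mean, among genes brighter than the median gene, and it ran from 0.086 to 0.113. The choice used the same arrays as the comparison. A rise like that of Lect2 therefore follows from the choice and is no separate result. Sult1b1, a sulfotransferase, rose to 8.42 ± 0.13 in HNF6KO livers, against 7.87 ± 0.14 in WT livers (SD, n = 4 each; log2 change 0.55 ± 0.09, adjusted p = 0.0433). This call held without HNF6KO array 2 and was lost without any other 1 array (adjusted p = 0.0636 to 0.164). Fam185a rose to 8.47 ± 0.09 in HNF6KO livers, against 7.97 ± 0.06 in WT livers (0.50 ± 0.06, adjusted p = 0.0123), and did not pass without HNF6KO array 3 (adjusted p = 0.0518) or WT array 2 (adjusted p = 0.0570). Acss3 (0.53 ± 0.17), Mospd2 (0.32 ± 0.10) and Akr1c14 (0.30 ± 0.12) did not pass, with adjusted p from 0.307 to 0.482. Without HNF6KO array 2, Acss3 (0.71, adjusted p = 0.0499) and Mospd2 (0.42, adjusted p = 0.0473) passed.

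The members varied more among the HNF6KO arrays than among the WT arrays, and 1 HNF6KO array was often the lowest. The SD was larger in HNF6KO livers for 9 of 10 members, where the same held for 67.9% of all genes, and Lgr5 was the exception. It ran from 0.0752 (Cyp1a2) to 0.48 (Rhbg) in HNF6KO livers and from 0.0097 (Cyp2e1) to 0.43 (Lgr5) in WT livers. HNF6KO array 2 was the lowest of all 8 arrays for 6 members (Glul, Rhbg, Cyp2e1, Cyp1a2, Axin2 and Tbx3), and the highest for Oat. Over all genes it was the lowest for 16.1%, and over the genes brighter than the median gene, as all members are, for 23.2%. The median of the members, each centred on its own mean, was -0.23 on HNF6KO array 2, against -0.03 to 0.07 on the other 3 HNF6KO arrays and -0.003 to 0.05 on the WT arrays. The same array was the lowest HNF6KO array in the mean level of several lists of markers of other cell types. The mean of 10 Kupffer cell markers was 7.77 there, against 8.29 to 9.42 on the other HNF6KO arrays, and 7.71 to 9.004 on the WT arrays. The mean of 8 markers of sinusoidal endothelium was 8.44 there, 8.85 to 9.33 on the other HNF6KO arrays, and 8.41 to 9.19 on the WT arrays. WT array 1 was lower still for both lists (7.71 and 8.41), and there the centred median of the members was -0.001. For markers of central vein endothelium, cholangiocytes and lymphocytes, HNF6KO array 2 was the lowest of all 8 arrays (6.91, 6.04 and 6.03). The lowest WT arrays had 6.998, 6.06 and 6.05. The cholangiocyte and lymphocyte means lay below the median gene (6.97) on every array. Gaps this small at that level do not show fewer of these cells. For stellate cell and fibroblast markers, WT arrays 1 and 2 were lower than HNF6KO array 2. For hepatocyte and red blood cell markers, HNF6KO array 2 was not the lowest HNF6KO array. Arrays 1 and 2 of each group lay below arrays 3 and 4 for Kupffer cells and for sinusoidal and central vein endothelium. Low levels of these markers were thus not confined to HNF6KO array 2. Whether any of the marker levels had a part in the members' low values was not tested. Without HNF6KO array 2 the median log2 change of the members was 0.01, with 6 above 0 and 4 below 0. Glul then had a log2 change of 0.04 and Tbx3 one of 0.01, both of opposite sign to the values over all arrays.

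**Figure D3:**
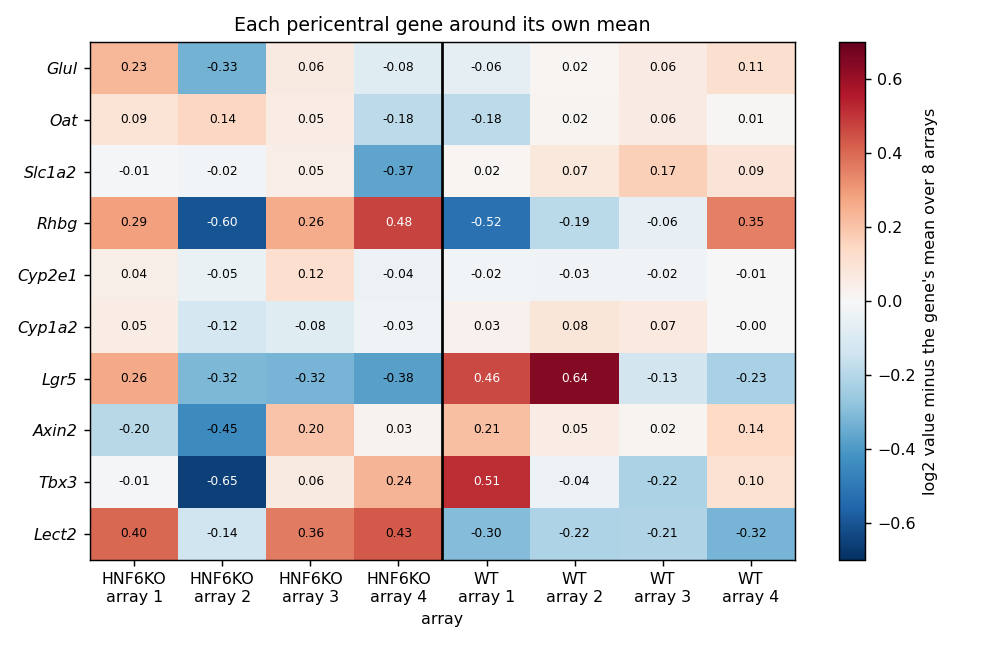
Log2 value of each pericentral gene minus its own mean over the 8 arrays, with HNF6KO arrays 1 to 4 left of the line and WT arrays 1 to 4 right of it. HNF6KO array 2 is the lowest array for 6 genes, and Lect2 is above its mean on HNF6KO arrays 1, 3 and 4 and below it on all WT arrays.

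The members were also compared in 2 sets of arrays by number, 1 and 2 in one and 3 and 4 in the other. The labels give these numbers only and name no batch, so the origin of the sets is not known. In both groups, arrays 1 and 2 had lower mean Kupffer cell markers than arrays 3 and 4. The values were 8.29 and 7.77 against 9.42 and 9.16 in HNF6KO livers, and 7.71 and 8.59 against 8.86 and 9.004 in WT livers. Markers of sinusoidal and central vein endothelium were ordered alike, as were those of hepatocytes with smaller gaps. The other marker lists did not separate the sets this way in both groups. Whether this bears on the members was not tested. On the log2 scale Axin2 differed by -0.45 ± 0.11 within arrays 1 and 2 and by 0.03 ± 0.09 within arrays 3 and 4. For Tbx3 these values were -0.57 ± 0.26 and 0.21 ± 0.12, and for Oat 0.20 ± 0.09 and -0.10 ± 0.09. Lgr5 had -0.58 ± 0.19 and -0.17 ± 0.07. Apart from Lect2 within arrays 3 and 4, no member passed within either set (limma, 2 arrays per group), and the difference between the sets was not tested. Cyp1a2 had -0.09 in each.

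**Figure D4:**
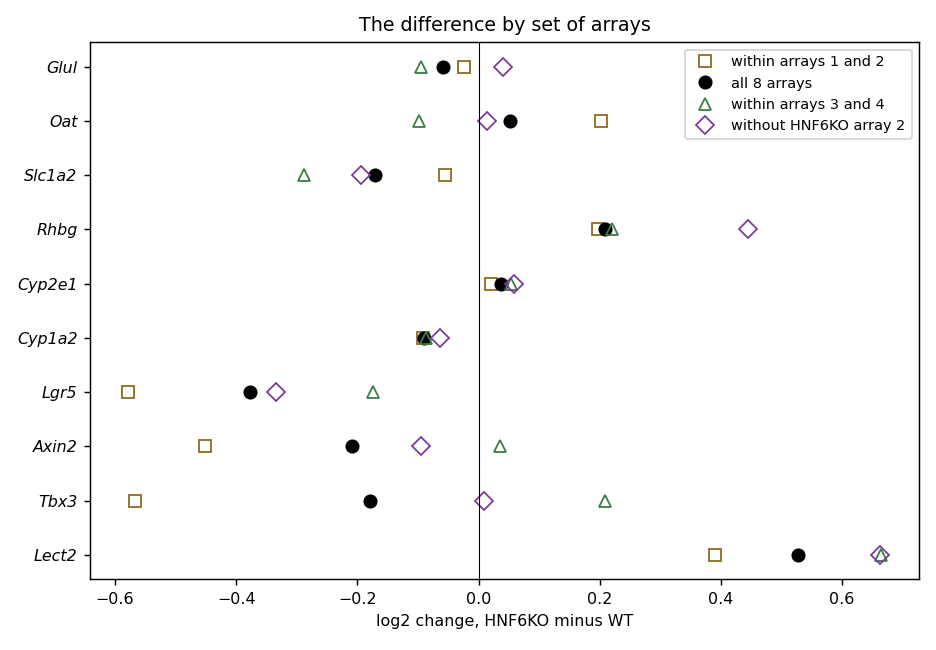
Log2 change (HNF6KO minus WT) of each pericentral gene over all 8 arrays, within arrays 1 and 2, within arrays 3 and 4, and without HNF6KO array 2. Axin2, Tbx3 and Oat change sign between the sets, while Slc1a2, Cyp1a2 and Lgr5 stay below 0 and Rhbg, Cyp2e1 and Lect2 above 0 in all 4 settings.

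Other genes known to be active in pericentral hepatocytes went both ways. Of 23 listed genes 21 were measured, and 1 rose (0.159% of all genes did), 1 fell (0.241% of all genes did) and 19 did not pass, with a median log2 change of -0.06. At an unadjusted p of 0.05, 5 of the 21 passed (4 higher and 1 lower in HNF6KO), where 9.51% of all genes did, and the groups did not overlap for 4 (3 higher and 1 lower), where 5.67% of all genes were apart. The P450 Cyp2c54 fell to 9.47 ± 0.67 in HNF6KO livers, against 12.36 ± 0.20 in WT livers (SD, n = 4 each; log2 change -2.89 ± 0.29, adjusted p = 0.00773). The glutathione transferase Gstm2 rose to 10.43 ± 0.26 in HNF6KO livers, against 9.65 ± 0.11 in WT livers (0.78 ± 0.12, adjusted p = 0.0412), and this call was lost when any 1 of HNF6KO arrays 1 and 4 or of the WT arrays was left out (0.73 to 0.81, adjusted p = 0.0623 to 0.164). Both belong to families of close relatives whose transcripts a probe set can share, so which relative changed is uncertain. The change of Cyp2c54 was larger than that of any of the 10 pericentral members.

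Of the Wnt pathway, 68 of 69 listed genes were measured and 0 passed (limma). At an unadjusted p of 0.05, 6 of the 68 passed, all lower in HNF6KO. Over all genes 9.51% reached it in either direction, and 1018 of 19540 were lower. The median log2 change was -0.06, and 49 of the 68 (72.1%) lay below 0, where 57.4% of all genes did. Among 13 ligands, R-spondins and secretion factors, the smallest p belonged to Wls, which carries Wnt proteins to the cell surface (0.18 ± 0.09), the R-spondin Rspo1 (-0.07 ± 0.05) and the acyltransferase Porcn (-0.12 ± 0.10), with adjusted p of 0.575 to 0.770. The ligands of the central vein, named for their role after the values were seen, had log2 changes of -0.11 ± 0.14 (Wnt2), -0.07 ± 0.05 (Wnt9b) and 0.09 ± 0.10 (Rspo3), and β-catenin itself (Ctnnb1) one of -0.04 ± 0.06. Their adjusted p ran from 0.786 to 0.894. Of the genes named here, Wls, Rspo1 and Wnt2 were dimmer than the median gene (45.4th, 38.4th and 48.4th percentile by mean value).

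Among 16 measured receptors and their regulators, the frizzled receptor Fzd7 came nearest. Its log2 values were 7.89, 7.25, 7.53 and 7.54 in HNF6KO livers, against 8.50, 8.24, 7.96 and 8.10 in WT livers. Every HNF6KO array lay below every WT array, and the log2 change was -0.65 ± 0.15 (adjusted p = 0.152). Of the 68 Wnt pathway genes, 3 lay apart in this way (Fzd7, Pygo2 and Sp5). Over all 19540 genes 628 lay apart in this direction and 5.67% in either direction, so this count is near its background. The ubiquitin ligase Znrf3, which removes frizzled receptors and is a Wnt target (-0.23 ± 0.09, adjusted p = 0.429), and Fzd5 (-0.19 ± 0.09, adjusted p = 0.540) followed. Among 18 measured genes of signal transduction, the TCF factor Tcf7l2 (-0.34 ± 0.11), the β-catenin cofactor Pygo2 (-0.17 ± 0.06) and the dishevelled protein Dvl1 (-0.17 ± 0.07) had adjusted p of 0.344 to 0.435. The 16 secreted and intracellular inhibitors spanned log2 changes of -0.14 to 0.08, with Sfrp5, Sfrp2 and Apcdd1 nearest to the threshold (adjusted p = 0.614 to 0.624). These 3 were dimmer than the median gene, at the 33.6th, 31.3rd and 48.1st percentile by mean value. Whether their probe sets detect the transcript was not tested, so small changes there do not show constant levels. Of 10 measured general Wnt targets, Tnfrsf19 showed -0.34 ± 0.14 (adjusted p = 0.456, and 0.0378 with a term for arrays 1 and 2 against arrays 3 and 4) and the transcription factor Sp5 -0.08 ± 0.04 (adjusted p = 0.583). Sp5 was dimmer than the median gene as well (34.5th percentile).

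**Figure D5:**
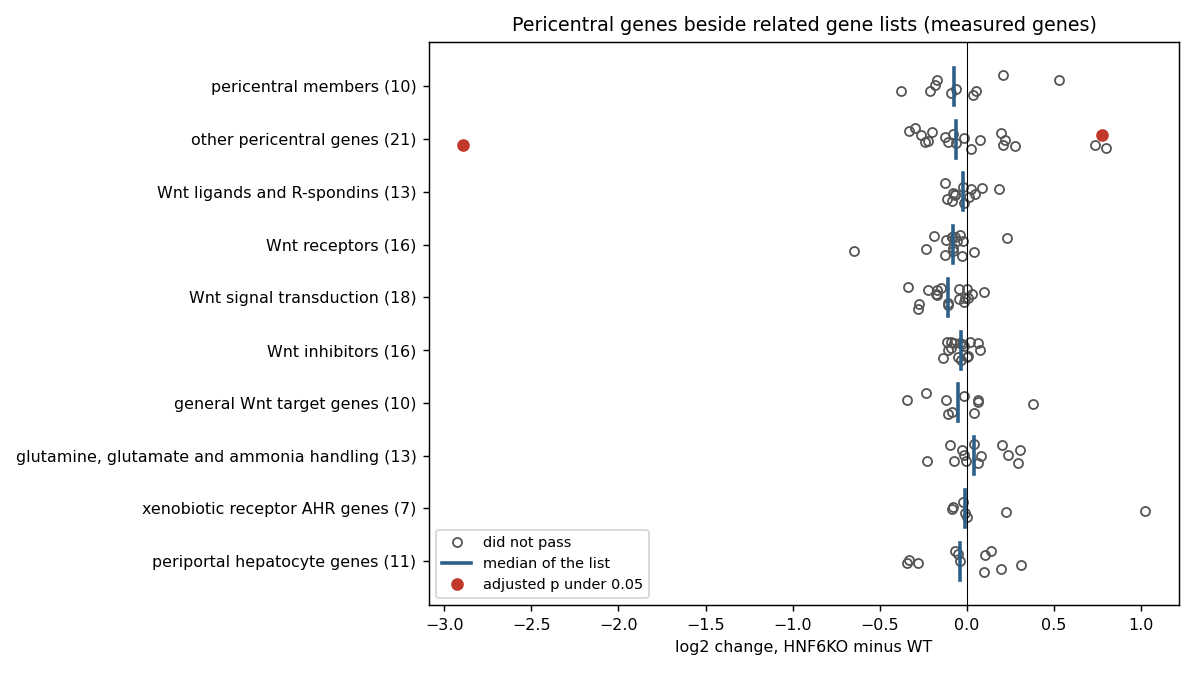
Log2 change (HNF6KO minus WT) of each measured gene in the 10 pericentral members and 9 related lists, with the number measured in brackets and blue lines at the medians. Filled points (Cyp2c54 and Gstm2) passed an adjusted p of 0.05, and none of the members did.

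Lists of neighbouring functions held no gene past the threshold either (limma). Of 15 genes of glutamine, glutamate and ammonia handling 13 were measured, and 0 passed. At an unadjusted p of 0.05, 2 of the 13 passed, both higher in HNF6KO. Over all genes 9.51% reached it in either direction, and 841 of 19540 were higher. The alanine aminotransferase Gpt stood at 0.24 ± 0.07 (adjusted p = 0.250), and the amino acid transporters Slc1a4 and Slc1a5 had 0.21 ± 0.08 and 0.31 ± 0.14 (adjusted p = 0.469 and 0.533). Slc1a5 stood at 0.16 without HNF6KO array 4. Of 7 genes of the AHR pathway, which also regulates Cyp1a2, 0 passed. At an unadjusted p of 0.05, 2 of the 7 passed, both higher in HNF6KO, against the same 9.51% in either direction and 841 of 19540 higher. The AHR partner Arnt had 0.23 ± 0.06 (adjusted p = 0.217), the quinone reductase Nqo1 1.02 ± 0.39 (adjusted p = 0.435) and Cyp1b1 -0.09 ± 0.06 (adjusted p = 0.697). Nqo1 was 0.62 without HNF6KO array 4, 0.26 within arrays 1 and 2, and 1.78 within the other set. Of 15 periportal genes, which mark the opposite end of the lobule, 11 were measured and 0 passed, with a median of -0.04. At an unadjusted p of 0.05, 4 of the 11 passed (2 in each direction), where 9.51% of all genes did. The histidase Hal came nearest (0.31 ± 0.05, adjusted p = 0.0536), and passed with a term for arrays 1 and 2 against arrays 3 and 4 (adjusted p = 0.0235). It was followed by the cadherin Cdh1 (-0.33 ± 0.11, adjusted p = 0.351) and the P450 Cyp2f2 (-0.28 ± 0.11, adjusted p = 0.450).

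The levels of cell type markers overlapped between the groups except for the red blood cell list. That list held only 2 measured genes, and its separation came mainly from 1 of them, Alas2. It therefore does not stand for the cell type. The mean log2 value of 6 measured hepatocyte markers of 8 ran from 13.30 to 13.46 in HNF6KO livers and from 13.34 to 13.43 in WT livers. For 5 of 5 markers of central vein endothelium it ran from 6.91 to 7.31 in HNF6KO livers and from 6.998 to 7.35 in WT livers. For 8 of 8 stellate cell and fibroblast markers it ran from 8.14 to 8.55 in HNF6KO livers and from 8.12 to 8.50 in WT livers. For 5 of 7 cholangiocyte markers the ranges were 6.04 to 6.13 in HNF6KO livers and 6.06 to 6.09 in WT livers, and for 6 of 7 lymphocyte markers 6.03 to 6.16 in HNF6KO livers and 6.05 to 6.16 in WT livers. The 2 measured red blood cell markers of 5 averaged 7.61 to 8.20 in HNF6KO livers and 8.32 to 8.48 in WT livers, mainly through Alas2, the erythroid enzyme of heme synthesis (log2 change -0.98 ± 0.19, adjusted p = 0.0925). Alas2 passed in 3 alternative fits: without HNF6KO array 1 (-1.14, adjusted p = 0.0416), within arrays 3 and 4 (-1.40, adjusted p = 0.0181) and with the term for the 2 sets of arrays (adjusted p = 0.0296). No marker passed over all 8 arrays without that term, and the part of blood content in the members' values was not tested.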

How the data were processed

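Per the labels' protocols, Trizol RNA of mouse liver was biotin-labelled and hybridised to 8 Affymetrix arrays. The authors deposited 1 value per probe set and array (22725 probe sets), read here as log2 from its range of 3.69 to 14.1. No source used here gives the log base or the normalization. A shift shared by most transcripts may have been removed. Array medians lay between 6.89 and 6.97, and the number of arrays limits the precision. Probe sets with 1 symbol in the platform annotation (21113) gave 19540 genes, the brightest standing for each.

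HNF6KO was compared with WT with limma 3.58.1 in R 4.3.3 (lmFit and eBayes, no trend), p-values adjusted by Benjamini-Hochberg across genes, and a threshold of 0.05. Intervals are 95% and not adjusted. The step was tested on simulated data. Members and lists were chosen with earlier results of these data known, and the lists come from general knowledge. Named are all members, Onecut1, each list's genes past the threshold or else its 3 with the smallest p, the 5 genes nearest to Lect2, and 5 genes (Wnt2, Wnt9b, Rspo3, Ctnnb1 and Alas2) chosen after their values were seen. Alternatives were other normalizations, filters, variance models and probe set choices, the array number as a block, a term for arrays 1 and 2 against arrays 3 and 4, each of these sets alone, and arrays left out.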

Additional observations from a re-analysis of the deposited data

Results flagged for a closer look

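In 6 of 92 groups of 4 arrays, 1 array stood apart by Dixon's criterion, and chance flags about 1 in 20. Of the 20 groups of pericentral members, 3 were flagged, all in HNF6KO livers. Slc1a2 was 11.09 on HNF6KO array 4, where the other HNF6KO arrays lay between 11.45 and 11.51. Lgr5 was 7.51 on HNF6KO array 1, where the others lay between 6.87 and 6.93. Lect2 was 11.18 on HNF6KO array 2, where the others lay between 11.68 and 11.75. Among the other named genes, Fzd5 was 7.45 on WT array 4 (others 7.72 to 7.76), Pygo2 was 7.59 on WT array 1 (others 7.51), and Fam185a was 7.88 on WT array 1 (others 7.99 to 8.01).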

How the results depend on the processing

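Over the 18 alternative fits, 170 of 180 values of the 10 members kept their sign and their side of the threshold. The exceptions were Lect2, which passed within arrays 3 and 4 (0.66) and without HNF6KO array 2 (0.66), and 8 changes of sign, none past the threshold. These were Glul (0.041) and Tbx3 (0.0087) without HNF6KO array 2, Oat after quantile normalization (-0.0045), within arrays 3 and 4 (-0.10) and without WT array 1 (-0.00072), Rhbg without HNF6KO arrays 3 and 4 (-0.054), and Axin2 (0.035) and Tbx3 (0.21) within arrays 3 and 4. Leaving out 1 array gave Glul -0.15 to 0.041, Tbx3 -0.29 to 0.0087 and Oat -0.00072 to 0.12. The members past the threshold thus numbered 1 within arrays 3 and 4 and 0 to 1 with 1 array left out.

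With the array number as a replicate block, 125 genes passed in place of 78, among them 1 Wnt pathway gene (Fzd7, -0.65, adjusted p = 0.0457), and 0 members. Same-numbered arrays deviated together for arrays 1, 2 and 3 (r = 0.44, 0.17 and 0.51 across genes) but not for array 4 (0.02), and 2 of 4 HNF6KO arrays correlated best with their own number, so the numbers were not taken as pairs. With a term for arrays 1 and 2 against arrays 3 and 4, 245 genes passed, among them 1 Wnt pathway gene (Tnfrsf19, adjusted p = 0.0378). Within arrays 1 and 2 22 passed, without HNF6KO arrays 3 and 4 19 passed, and with 1 array left out 16 to 79. The other pericentral genes past the threshold numbered 1 after quantile normalization and within arrays 3 and 4, 0 within arrays 1 and 2 and without HNF6KO arrays 3 and 4, and 1 to 2 with 1 array left out, in place of 2. The median of the members lay between -0.13 and 0.01 with 1 array left out. Of 643 such values of 36 other named genes, 596 kept sign and call, 35 lost a call and 8 gained one. The gains were Fzd7 and Tnfrsf19 as above, Hal (adjusted p = 0.0235) and Alas2 (adjusted p = 0.0296) with the term for the sets of arrays, Alas2 also within arrays 3 and 4 and without HNF6KO array 1, and Acss3 and Mospd2 without HNF6KO array 2. In 4 the sign changed, all short of the threshold: Porcn (0.020) and Rspo3 (-0.042) without HNF6KO arrays 3 and 4, and Cyp1b1 (0.014) and Wnt9b (0.0071) within arrays 1 and 2. Onecut1 lost its call without any 1 of HNF6KO arrays 3 and 4 and WT arrays 1, 3 and 4. The causes were not tested.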
